A study of Rattus norvegicus with 10 samples.

Results

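The 10 genes described here encode apolipoproteins of rat liver and 2 proteins that act on the particles they form, Mttp and Lipc. They were chosen by name, as Apoa1, Apoa2, Apoa4, Apoa5, Apob, Apoc2, Apoc3, Apoe, Mttp and Lipc, and each matched 1 gene among the 32883 genes of the deposited TPM table. All 10 were among the 11083 genes kept for testing, which reached 1 TPM in 5 or more of 10 samples. One set of livers came from male Eisai hyperbilirubinemic rats (EHBR) aged 5 weeks, a mutant line derived from Sprague-Dawley rats that lacks the canalicular export pump Mrp2, encoded by Abcc2, and the other from male Sprague-Dawley (SD) rats of the same age. Each strain had 5 samples, numbered 1 to 5, and the labels name no treatment. Loss of Mrp2 and any other difference between the strains cannot be told apart in this design.

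Liver secretes triglyceride as very low density lipoprotein (VLDL), built around 1 large protein, apolipoprotein B, onto which the microsomal transfer protein MTP (Mttp) loads lipid in the endoplasmic reticulum. Apolipoproteins A-I and A-II are the main structural proteins of high density lipoprotein (HDL). Apolipoprotein C-II activates lipoprotein lipase, the enzyme that clears triglyceride from these particles in blood, apolipoprotein C-III restrains that clearance and apolipoprotein A-V favours it. Apolipoprotein E is the ligand by which remnant particles are taken up, and hepatic lipase (Lipc) hydrolyses lipid of remnants and HDL.

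Liver RNA was sequenced after poly(A) selection, with 13794181 to 17644759 reads assigned to genes in EHBR samples and 15619277 to 19601572 in SD samples. Levels are given in TPM, transcript abundances scaled for gene length and to the same total in every sample. Abcc2, which checks the strain labels, had 10.1 to 17.6 TPM in EHBR samples and 60.0 to 271 TPM in SD samples. Hepatocyte markers summed to 173097 to 193287 TPM in EHBR and 154873 to 184077 TPM in SD, led by albumin (Alb). Of the 7 intestinal markers matched, 5 were under 1 TPM in all samples. Intestinal markers led by Anpep summed to 52.6 to 65.5 TPM in EHBR and 57.6 to 99.4 TPM in SD. Pancreatic markers led by Cela1 summed to 19.97 to 32.01 TPM in EHBR and 40.0 to 66.4 TPM in SD, without overlap. Of the 7 pancreatic markers matched, 5 were under 1 TPM in all samples. The sum is mostly Cela1, with means of 25.9 TPM in EHBR and 52.6 TPM in SD. Lower in EHBR were 1 of 9 kept hepatocyte, 1 of 2 intestinal and 1 of 1 pancreatic markers (limma, adjusted p under 0.05). Samples 4 and 5 of each strain were set apart from samples 1 to 3 over all genes. This division, seen in the data and not in the labels, is balanced between strains, and strain differences are also given within it. A term for it removes spread in which the division was seen, so p values with that term may be too small. Nothing in the labels says how the animals were bred, housed or paired, so the tests weigh strain differences against the spread of these 10 samples, which may be partly technical.

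Together the 10 genes took 3.85 ± 0.30% of TPM in EHBR livers and 4.28 ± 0.422% in SD livers (SD, n = 5 each), with ranges of 3.46% to 4.26% in EHBR and 3.67% to 4.68% in SD that overlapped. Apoe was by far the most abundant, ranking between 5 and 9 among all genes in each sample. Apoc3 followed at ranks 15 to 24, then Apoa1 at 23 to 31. Apoc2 and Apoa2 lay between ranks 32 and 56. Apoa2 was above Apoc2 in every EHBR sample, at 3040.2 TPM or more against 2587 TPM or less, while in SD their ranges overlapped. Apoa4, Apoa5, Lipc and Apob ranked from 86 to 667. Mttp, which encodes a lipid transfer subunit of the endoplasmic reticulum rather than a plasma protein, ranked from 950 to 2198. The shallowest value of the set was 1439 reads for Mttp in 1 SD sample and the deepest 388354 reads for Apoe, as recovered from the FPKM values, so counting error was small beside the spread between samples.

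**Figure D1:**
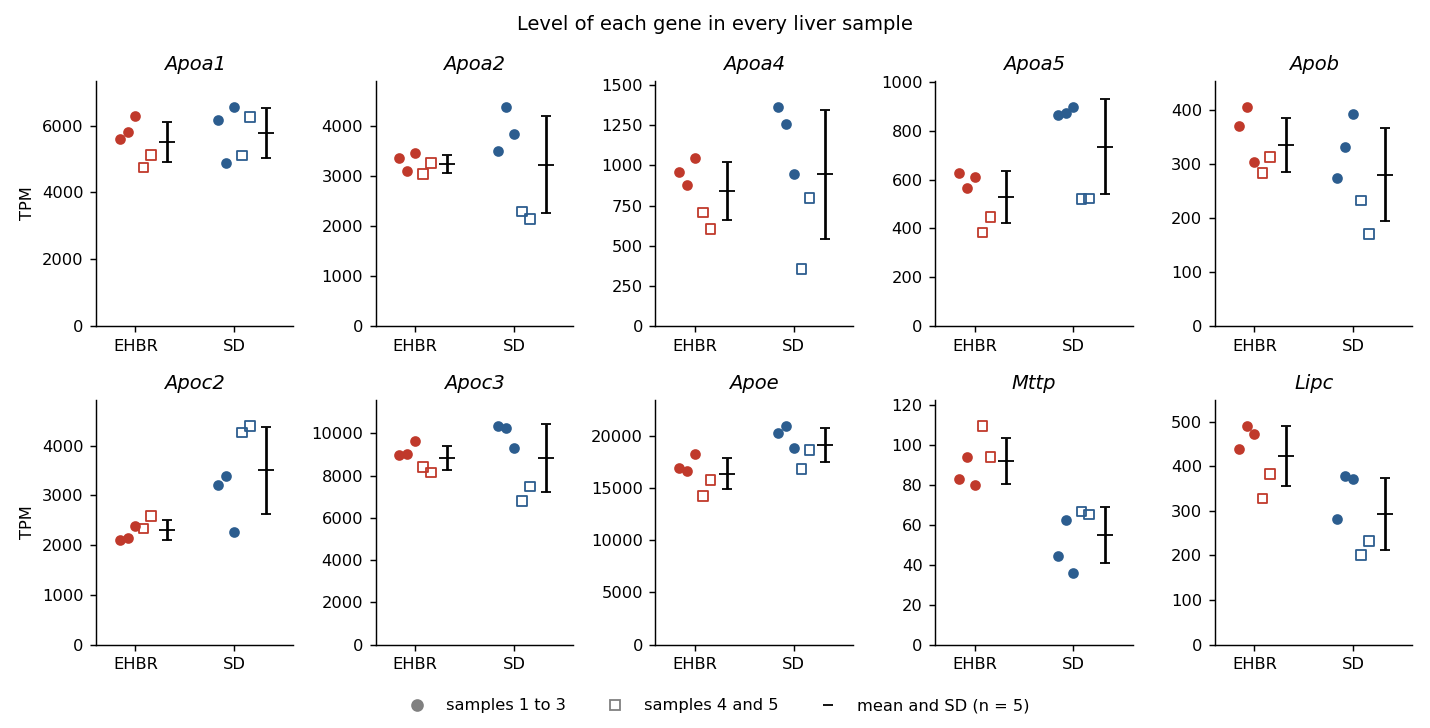
TPM of each gene in every liver sample, with EHBR on the left and SD on the right of each panel. Filled circles are samples 1 to 3, open squares samples 4 and 5, and the bar is the mean with its SD (n = 5). Mttp is the gene whose strains do not overlap, at 80.2 TPM or more in EHBR and 66.7 TPM or less in SD.

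Strain differences are on the log2(TPM + 1) scale, EHBR minus SD, from limma with Benjamini-Hochberg adjustment over all 11083 kept genes and a threshold of 0.05. Of the 10 genes, 1 passed, Mttp, which was higher in EHBR. Over all kept genes 604 passed, a share of 5.45%, with 3.82% higher and 1.63% lower, so a single call among 10 genes is near what the whole table gives. The median difference of the 10 genes was -0.02, with 5 above 0 and 5 below, against 0.15 over all kept genes and 0.03 over the 993 kept genes averaging 100 TPM or more (a class chosen after the data were seen). At an unadjusted p under 0.05, 4 of the 10 genes and 2317 of all kept genes passed. In 1 of the 10 genes the strains did not overlap, where 8.47% of kept genes did not.

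Mttp, the lipid transfer subunit without which apolipoprotein B is not assembled into particles, rose in EHBR. It lies on the minus strand of chromosome 2 from 243366181 to 243407608 in the build rn6. EHBR samples 1 to 5 had 83.3, 94.1, 80.2, 109.8 and 93.997 TPM, and SD samples 1 to 5 had 44.6, 62.4, 35.9, 66.7 and 65.4 TPM. Every EHBR sample was above every SD sample. In whole liver, more cells of a type and more RNA per cell cannot be told apart, nor can fewer cells and less RNA per cell. The mean was 92.3 ± 11.6 TPM in EHBR and 55.0 ± 13.9 TPM in SD (SD, n = 5 each), 1.68 times as high, with a log2 difference of 0.77 (SE 0.17, limma adjusted p = 0.024). The difference was 0.87 in samples 1 to 3 and 0.61 in samples 4 and 5, and a test of whether these differ gave an adjusted p = 0.619 (limma interaction). The call was lost when samples were centred on their medians (0.60, adjusted p = 0.227) and held there once a term for the sample numbers was added (0.60, adjusted p = 0.0328). It was also lost without EHBR sample 2 (0.76), EHBR sample 4 (0.70), EHBR sample 5 (0.76) or SD sample 1 (0.70), with adjusted p = 0.0652, 0.065, 0.0534 and 0.0636 (limma).

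Apob, the protein on which MTP acts, had overlapping strains. Its level was 283 to 405 TPM in EHBR and 169.9 to 391.9 TPM in SD, and the log2 difference of 0.30 (95% interval -0.14 to 0.74) did not pass (limma adjusted p = 0.407). The difference was 0.12 in samples 1 to 3, where the strains overlapped, and 0.58 in samples 4 and 5, where both EHBR samples were above both SD samples. Apob spans 33176778 to 33224997 on the plus strand of chromosome 6 (rn6). Rat liver edits the Apob message to make a shortened protein as well as the full one, and the TPM of the gene does not tell these forms apart. The editing enzyme gene Apobec1 had 9.35 ± 2.62 TPM in EHBR and 7.28 ± 2.39 TPM in SD, and its cofactor gene A1cf 26.8 ± 9.41 TPM in EHBR and 17.3 ± 12.1 TPM in SD (SD, n = 5 each), and neither passed (limma adjusted p = 0.412 and 0.301). Both were named after their values were seen.

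**Figure D2:**
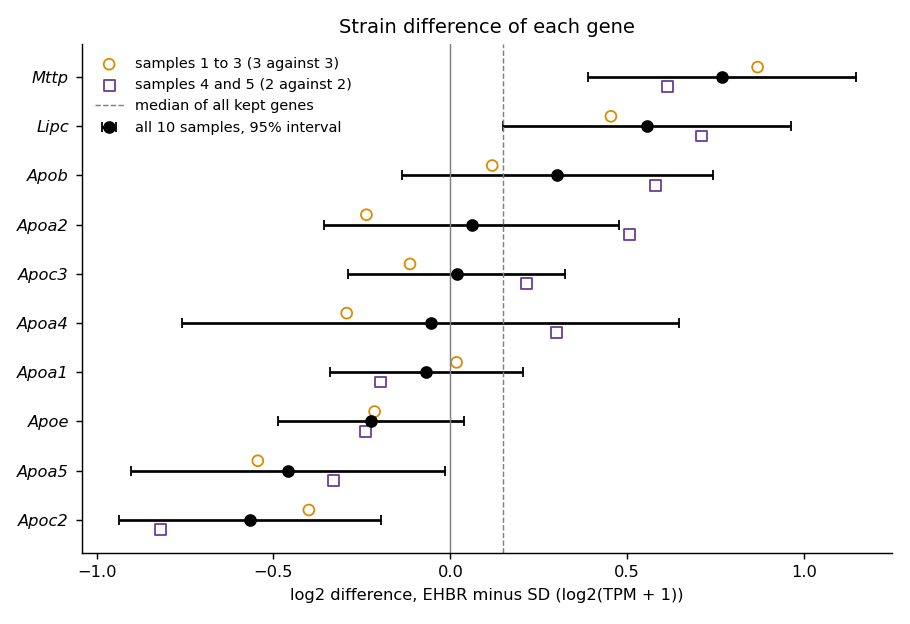
Log2 difference of each gene, EHBR minus SD, on the log2(TPM + 1) scale. Black points with 95% intervals use all 10 samples, open circles samples 1 to 3 and open squares samples 4 and 5, and the dashed line is the median of all kept genes at 0.15. Mttp and Lipc lie furthest to the right at 0.77 and 0.56, and Apoc2 furthest to the left at -0.57.

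Lipc, hepatic lipase, was higher in EHBR within both sets of sample numbers but did not pass over all 10 samples. EHBR samples 1 to 5 had 440.0, 491, 472, 328 and 383 TPM, and SD samples 1 to 5 had 282, 378, 372, 201 and 233 TPM. EHBR sample 4 lay inside the SD range, while within samples 1 to 3 and within samples 4 and 5 every EHBR value was above every SD value. The mean was 423 ± 66.9 TPM in EHBR and 293 ± 80.0 TPM in SD (SD, n = 5 each), a log2 difference of 0.56 (SE 0.19, limma adjusted p = 0.115). With a term for the sample numbers the same difference passed (limma adjusted p = 0.0052). In samples 4 and 5 alone it also passed, at 0.71 (limma adjusted p = 0.0497). After median centring alone it did not pass (0.39, limma adjusted p = 0.154). Among 30 settings Lipc passed in 5.

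Apoc2, the activator of lipoprotein lipase, was lower on average in EHBR and did not pass over all samples. Across EHBR samples 1 to 5 the values were 2094, 2141, 2379, 2329 and 2587 TPM, and SD samples 1 to 5 had 3204, 3388, 2259, 4263 and 4397 TPM. SD sample 3 lay among the EHBR values and the other 4 SD samples were above all EHBR samples. The mean was 2306 ± 198 TPM in EHBR and 3502 ± 869.8 TPM in SD (SD, n = 5 each), a log2 difference of -0.57 (SE 0.17, limma adjusted p = 0.0811). Without SD sample 3 the difference was -0.72 and passed. With the term for the sample numbers it passed at -0.57 (limma adjusted p = 0.0131). Apoc2 did not pass in the other fits with 1 sample left out. It also failed after median centring alone (-0.74, limma adjusted p = 0.156) and with FPKM (-0.66, limma adjusted p = 0.108). Among 30 settings Apoc2 passed in 5.

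Apoa5, whose product favours clearance of triglyceride from plasma, was also lower on average in EHBR. In EHBR samples 1 to 5 it had 627, 567, 612, 383 and 448 TPM, and SD samples 1 to 5 had 863, 875, 896, 520.2 and 522 TPM. Samples 1 to 3 were above samples 4 and 5 in both strains, which made the strains overlap, but within each set of numbers all EHBR values were below all SD values. The mean was 528 ± 107 TPM in EHBR and 735 ± 196 TPM in SD (SD, n = 5 each), a log2 difference of -0.46 (SE 0.20, limma adjusted p = 0.227). With the term for the sample numbers the SE was 0.07 and the adjusted p = 0.00214 (limma). The division behind that term was found in these same values, so this p may be too small. Apoa5 was the 1 gene of the 10 that passed after median centring without that term (-0.63, limma adjusted p = 0.0343). In that fit 4.14% of kept genes passed. Among 30 settings Apoa5 passed in 9, none of them with 1 sample left out.

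With the term for the sample numbers 4 of the 10 genes passed, Mttp and Lipc as higher and Apoc2 and Apoa5 as lower, and the same 4 passed when median centring or removal of a length trend was combined with it. Over all kept genes 16.9% passed with that term, 13.6% as higher and 3.36% as lower. In the fit with both median centring and the term 10.7% of kept genes passed. In samples 1 to 3 alone 2 of the 10 genes passed, Mttp and Apoa5, where 6.51% of kept genes did, and in samples 4 and 5 alone 2 passed, Apoc2 and Lipc, where 5.16% did. Within both sets of sample numbers the strains were apart in the same direction for 4 of the 10 genes, Mttp, Lipc, Apoa5 and Apoe, and for 17.9% of kept genes.

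**Figure D3:**
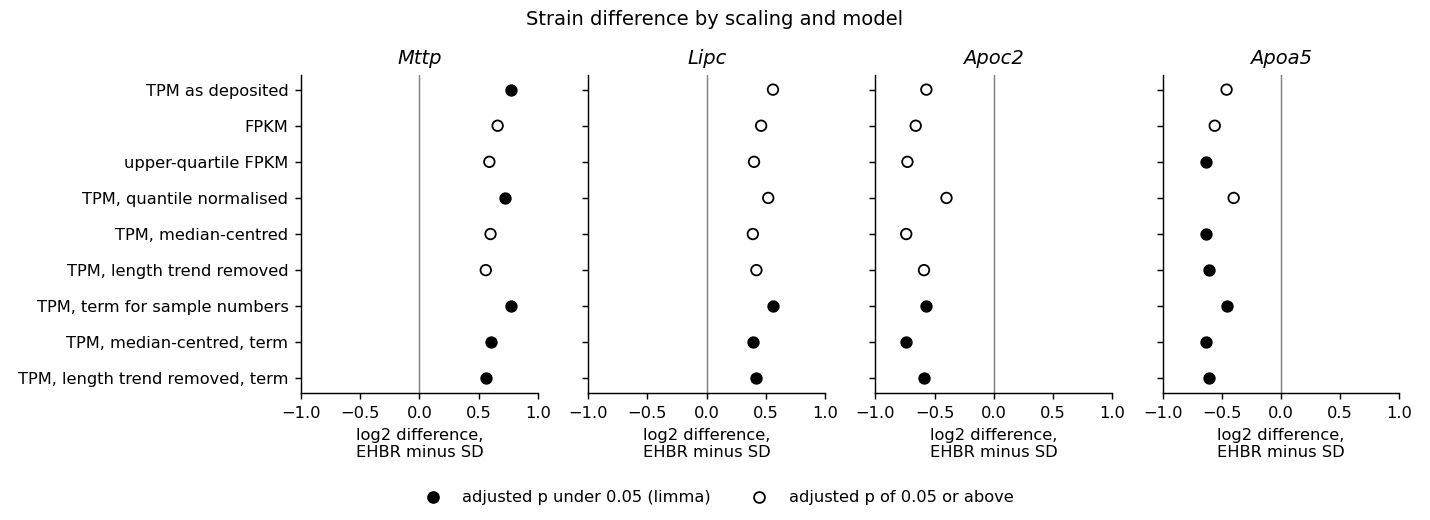
Log2 difference, EHBR minus SD, of the 4 genes under each scaling of the values and with or without a term for the sample numbers. Filled points have an adjusted p under 0.05 and open points do not (limma). All points of Mttp and Lipc are above 0 and all points of Apoc2 and Apoa5 below 0, while the fill changes with the scaling.

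The 300 bases around the transcription start of 3 of these genes are shown because their genes passed in the fit with the sample numbers and had a promoter in the table. They come from RefSeq on the build GRCr8, from 250 bases before the start to 50 after it, in the direction of transcription, and capitals mark every motif match. Promoters were matched for 5 of the 10 genes (Apoa4, Apoa5, Apoc2, Apoe and Lipc), with 8 starts in all. Apoc2 is on the minus strand at chr1:88462316-88462615, the Apoa5 start shown is on the plus strand at chr8:55457621-55457920, and Lipc is on the minus strand at chr8:80516236-80516535.
Apoc2: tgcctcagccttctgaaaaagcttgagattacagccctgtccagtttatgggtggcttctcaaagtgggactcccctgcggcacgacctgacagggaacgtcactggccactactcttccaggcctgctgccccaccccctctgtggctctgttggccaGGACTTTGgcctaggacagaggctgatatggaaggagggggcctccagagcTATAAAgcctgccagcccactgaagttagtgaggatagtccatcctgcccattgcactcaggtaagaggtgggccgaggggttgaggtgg
Apoa5: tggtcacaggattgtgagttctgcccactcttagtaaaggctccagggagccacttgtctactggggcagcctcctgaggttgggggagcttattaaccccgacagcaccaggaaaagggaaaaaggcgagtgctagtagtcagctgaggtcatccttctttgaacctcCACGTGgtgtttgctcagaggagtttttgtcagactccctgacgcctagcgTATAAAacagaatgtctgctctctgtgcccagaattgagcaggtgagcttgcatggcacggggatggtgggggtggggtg
Lipc: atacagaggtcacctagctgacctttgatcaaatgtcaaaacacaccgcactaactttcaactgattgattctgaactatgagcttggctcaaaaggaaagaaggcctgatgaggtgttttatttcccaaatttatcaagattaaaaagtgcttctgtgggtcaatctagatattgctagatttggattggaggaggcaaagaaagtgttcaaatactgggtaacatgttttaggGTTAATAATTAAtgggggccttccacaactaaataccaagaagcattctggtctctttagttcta

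Both strands were searched for 6 motifs. Apoc2 holds GGACTTTG, the reverse complement of the HNF4 core CAAAGTCC, from 91 bases before the start, and TATAAA from 40 bases before it. HNF4 is a nuclear receptor of hepatocyte identity. Of 33469 rat promoters of this length, 1.40% hold that core and 14.2% hold TATAAA on either strand. The Apoa5 start shown holds the E-box CACGTG 81 bases upstream, a letter pattern bound by USF and ChREBP factors and held by 6.42% of promoters, and TATAAA 30 bases upstream. A further Apoa5 start holds TCACCCCAC, one form of the sterol response element, on the minus strand 112 bases upstream, as do 0.484% of promoters, and its window shares the E-box and TATAAA with the start shown. Lipc holds GTTAATAATTAA, a match to the palindromic motif of HNF1, another hepatocyte factor, which is in 0.0448% of promoters, from 15 bases before the start. The nuclear receptor DR1 motif was in 0 of the 5 genes and in 0.0538% of promoters. No motif overlapped another, and a match is a description of letters, not of binding.

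The HDL proteins showed no difference that passed. Apoa1 had 4745 to 6278 TPM in EHBR and 4868 to 6546 TPM in SD, with means of 5509.9 ± 597 TPM in EHBR and 5790.3 ± 749 TPM in SD (SD, n = 5 each). Its log2 difference was -0.07 with a 95% interval of -0.34 to 0.20, which leaves out a change of 2-fold in either direction. The sign of that difference turned to 0.30 after quantile normalization, without passing.

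Apoa2 had close means, 3245 ± 172 TPM in EHBR and 3233 ± 979 TPM in SD (SD, n = 5 each), with unequal spread. Across EHBR samples 1 to 5 the values were 3355, 3107, 3455, 3040.2 and 3269 TPM, and SD samples 1 to 5 had 3499, 4381, 3849, 2295 and 2143 TPM. All EHBR samples lay between SD samples 4 and 5, which were lowest, and SD samples 1 to 3, which were highest. The coefficient of variation was 5.29% in EHBR and 30.3% in SD, and the log2 difference was 0.06 (SE 0.19, limma adjusted p = 0.868). The difference was -0.24 in samples 1 to 3 and 0.51 in samples 4 and 5. The test of this contrast gave 0.74 with an unadjusted p = 0.000635 and an adjusted p = 0.0774 (limma interaction), so it did not pass.

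Apoc3, the inhibitor of triglyceride clearance, also had close means, 8838 ± 574 TPM in EHBR and 8839 ± 1626 TPM in SD (SD, n = 5 each). Its log2 difference of 0.02 had a 95% interval of -0.29 to 0.33. The strains differed by -0.11 in samples 1 to 3 and by 0.22 in samples 4 and 5, with an adjusted p = 0.195 for the contrast (limma interaction). None of the 10 genes passed that interaction test, and 0.271% of all kept genes did. At an unadjusted p under 0.05 it called 2 of the 10 genes (Apoa2 and Apoc3) and 2252 of the 11083 kept genes.

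Apoa4, an apolipoprotein made in intestine and, in rodents, in liver, had the highest coefficient of variation of the set in both strains, 21.5% in EHBR and 42.5% in SD. In EHBR samples 1 to 5 it had 959.9, 877, 1046, 708 and 605 TPM, and SD samples 1 to 5 had 1362, 1260.3, 945, 354 and 798 TPM. The EHBR range lay inside the SD range. The log2 difference was -0.06 (SE 0.32), and its 95% interval of -0.76 to 0.65 allows changes of more than 1.5-fold either way.

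Coefficients of variation were lower in EHBR than in SD for 9 of the 10 genes, Apoe being the exception at 9.08% in EHBR and 8.42% in SD. Of all kept genes 75.1% had the lower coefficient in EHBR, so the direction is that of the table as a whole. SD samples 4 and 5 were both below the other SD samples in 7 genes, Apoa2, Apoa4, Apoa5, Apob, Apoc3, Apoe and Lipc, and both above them in Apoc2 and Mttp. In Apoa1 they were mixed with the others. Between sample numbers, with strain in the fit, 7 of the 10 genes differed (37.7% of kept genes did). Samples 4 and 5 minus samples 1 to 3 gave -0.65 for Apoa5, -0.85 for Apoa4 and 0.37 for Apoc2. The division was found in these same values, so genes that differ across it were to be had in advance. These counts describe the division and do not test it.

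Apoe, the remnant ligand, was the largest single contributor to these transcripts. Across EHBR samples 1 to 5 the values were 16971, 16643, 18319.5, 14288 and 15804 TPM, and SD samples 1 to 5 had 20301, 21027, 18924, 16849 and 18693 TPM. The strains overlapped over all samples and did not within either set of numbers, where EHBR was lower. The log2 difference was -0.22 (SE 0.12, limma adjusted p = 0.309), and it did not pass with the term for the sample numbers either (limma adjusted p = 0.0773). Macrophages also make Apoe: the 10 macrophage markers, led by C1qa, summed to 507 to 955 TPM in EHBR and 508 to 629 TPM in SD, and 0 of them passed (adjusted p, limma). Their part in the Apoe level was not tested.

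Several of these genes lie in 2 clusters. Apoa1, Apoc3, Apoa4 and Apoa5 span 36.6 kb of chromosome 8 from 50525091 to 50561736 (rn6), and among them Apoa5, 19.8 kb beyond Apoa4, had the largest difference from 0. Apoc2, Apoc4 and Apoe lie within 28034 bases of chromosome 1 from 80589023 to 80617057, all on the minus strand. Apoc4, whose product is a minor VLDL protein and whose gene is 1.2 kb from Apoc2, fell in EHBR to 867 ± 45.5 TPM, against 1399 ± 357 TPM in SD (SD, n = 5 each). Its log2 difference was -0.65 (SE 0.17, limma adjusted p = 0.0458), a call lost after median centring (-0.82, adjusted p = 0.102) and in all fits with 1 sample left out except that without SD sample 3.

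Between Apoc4 and Apoe, from 80606638 to 80609921, the files list NEWGENE_2134, whose Entrez gene number is that of Apoc1 in RefSeq, an inhibitor of lipoprotein uptake. It had 7919 ± 978 TPM in EHBR and 10532 ± 2026 TPM in SD (SD, n = 5 each), a log2 difference of -0.40 that did not pass (limma adjusted p = 0.163) and passed with the term for the sample numbers (0.0156) or after median centring (0.0475). The entry named Apoc1 in the files lies on an unplaced scaffold and is listed at 0 in every sample. All 4 apolipoprotein genes of this cluster thus had negative differences, while the adjoining genes went both ways. Tomm40, a mitochondrial import channel gene 1097 bases from Apoe, rose by 0.56, Nectin2, a cell adhesion gene, fell by 0.71 and Clptm1 had 0.26 without passing (limma adjusted p = 0.0325, 0.00758 and 0.125). The Tomm40 call was lost after median centring (adjusted p = 0.184). NEWGENE_2134 and these 3 neighbours were named after their values were seen.

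**Figure D4:**
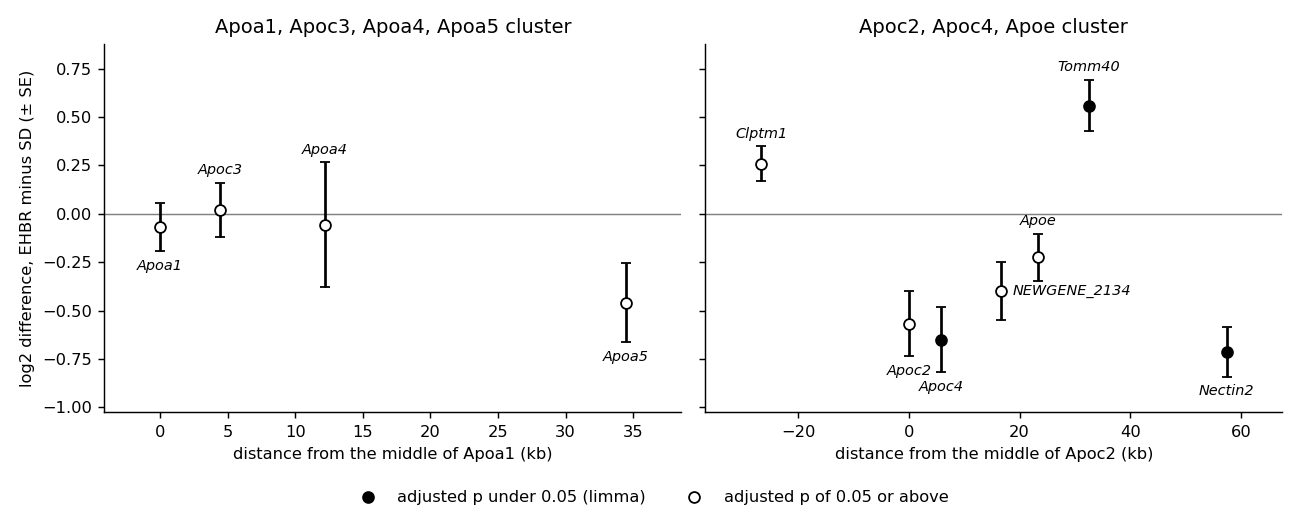
Log2 difference of each gene, EHBR minus SD, with its SE, against the distance in kb from the middle of Apoa1 or of Apoc2. Filled points passed limma at an adjusted p under 0.05. In the Apoc2, Apoc4 and Apoe cluster the 4 apolipoprotein genes, NEWGENE_2134 among them, lie below 0 and Tomm40 above it.

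Apoa1 and Apoa4 each enclose a short annotated gene on the opposite strand. AABR07070085.1, of 261 bases within Apoa1, had 5191 ± 622 TPM in EHBR and 6066 ± 818 TPM in SD (SD, n = 5 each), which is 0.899 to 0.982 times the Apoa1 value in EHBR and 1.03 to 1.09 times in SD. AABR07073400.1, within Apoa4, had 1.62 to 1.66 times the Apoa4 value in EHBR and 1.69 to 1.86 times in SD. In the FPKM table the same genes were far lower, at 0.0474 to 0.0571 times Apoa1 in EHBR and 0.0566 to 0.0754 times in SD for AABR07070085.1, and 0.0752 to 0.0866 times Apoa4 in EHBR and 0.0825 to 0.125 times in SD for AABR07073400.1. The reads recovered from upper-quartile FPKM were 659 to 1696 for AABR07070085.1 and 39701 to 76587 for Apoa1. With the median shift of each sample removed, Apoa1 and Apoa4 differed between the tables by at most 0.033 and 0.051 on the log2 scale. The antisense genes within them differed by up to 4.32 and 4.41. The sources used here do not give the strand or overlap setting behind either table, and the cause of the difference was not tested. The other 8 genes overlap no annotated gene.

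By pattern over the 10 samples, the genes most like Mttp among 7133 others averaging 5 TPM or more were Mtch2, Pmpcb and Nipsnap1, with Pearson r of 0.992, 0.964 and 0.961 and Spearman rho of 0.976, 0.891 and 0.939. Those most like Apoc2 were Apoc4, Cyp4f6 and Nucb2, with r of 0.967, 0.953 and 0.935 and rho of 0.891, 0.806 and 0.903. These correlations are over 10 samples that share strain and sample number. They were picked as the highest of the table, carry no p and describe these libraries only.

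The other genes of the pathway, in 6 lists of 112 kept genes, gave 8 higher and 4 lower calls, or 10.7%, where 5.45% of all kept genes and 11.7% of the kept genes averaging 100 TPM or more passed. Lipid supply held 7 of these 12 calls. Of 23 kept genes for triglyceride and cholesteryl ester supply, 6 rose, 1 fell and 16 did not pass, with a median log2 difference of 0.48 against 0.15 for all kept genes. The stearoyl-CoA desaturase gene Scd rose to 2669.5 ± 260.4 TPM in EHBR, against 557 ± 318 TPM in SD (SD, n = 5 each), a log2 difference of 2.50 (SE 0.39, limma adjusted p = 0.00323). Acsl5, an acyl-CoA synthetase, had 354 ± 57.2 TPM in EHBR and 148 ± 39.6 TPM in SD, a difference of 1.27. Pnpla3, a lipid droplet protein, had 277 to 521 TPM in EHBR and 7.53 to 82.9 TPM in SD. The others that rose were Fads2, Gpam and Dgat2, the last being the acyltransferase of triglyceride synthesis, by 1.08, 1.48 and 0.58, and Ces1d, a carboxylesterase of lipid mobilization, fell by 1.45 on the log2 scale. Ces1d belongs to a family of similar genes between which reads can be split, so its value is uncertain. Median centring ended the calls of Dgat2 (limma adjusted p = 0.0869) and Gpam (0.123).

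Of 13 kept genes in the list of other apolipoproteins, 2 fell (Apoc4 and Apon) and 11 did not pass, with a median of -0.12. That list also holds the paraoxonase genes Pon1 and Pon3 and the mitochondrial genes Apoo and Apool. It leaves out NEWGENE_2134. Apon, an apolipoprotein gene of rodents, had 138 ± 14.6 TPM in EHBR and 177 ± 11.01 TPM in SD (SD, n = 5 each), with no overlap and a log2 difference of -0.36 (limma adjusted p = 0.0454). Apon did not pass after median centring (adjusted p = 0.0515) or in any fit with 1 sample left out. None of 19 assembly, secretory transport and mRNA editing genes passed (4 did, as higher, with the term for the sample numbers), and the most abundant, P4hb, the subunit that partners MTP, had 891 ± 106 TPM in EHBR and 858 ± 157 TPM in SD. Of 13 lipases and remodelling factors 1 rose, Pcsk6, a protease that cleaves lipases, to 16.5 ± 1.63 TPM in EHBR, against 9.84 ± 1.43 TPM in SD. Of 16 receptors and efflux pumps 1 rose, Stab1, a scavenger receptor of sinusoidal endothelium, with 2.37 ± 0.494 TPM in EHBR and 1.04 ± 0.338 TPM in SD. Markers of that endothelium, led by Lyve1, summed to 109 to 139.6 TPM in EHBR and 72.7 to 98.5 TPM in SD, with 2 of 7 higher, and their part in the Stab1 value was not tested. The Stab1 call was lost after median centring (adjusted p = 0.0738) and without EHBR sample 2 or 3 (0.0541 and 0.0546). Of 28 regulators of apolipoprotein genes 1 fell, the orphan receptor gene Nr2f6, to 63.0 ± 6.95 TPM in EHBR, against 83.6 ± 8.80 TPM in SD, a call that held in leave-one-out fits only without EHBR sample 1.

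**Figure D5:**
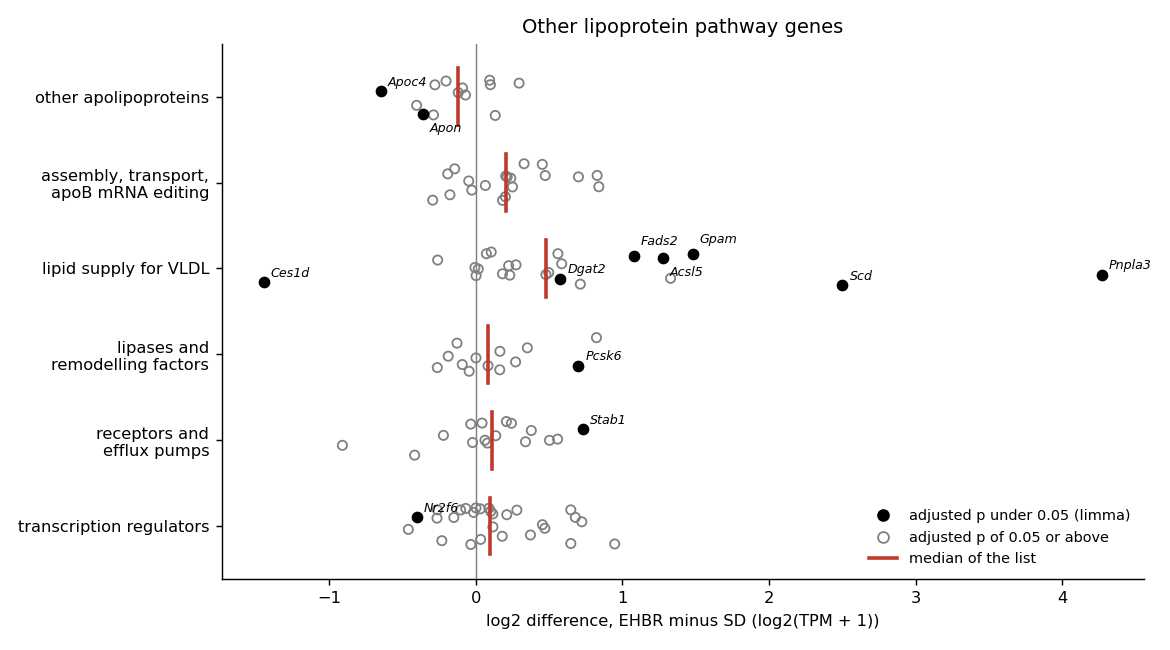
Log2 difference, EHBR minus SD, of the other pathway genes in 6 lists. Each point is a gene, filled where it passed limma at an adjusted p under 0.05, and the red bar is the median of the list. The lipid supply list has its median at 0.48 and most of the filled points, and the other medians lie between -0.12 and 0.20.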

How the data were processed

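RNA was measured in 10 rat liver samples, 5 EHBR and 5 SD, grouped by their titles. Total RNA was extracted with TRIzol and poly(A) RNA was made into directional libraries, per the labels' protocols. Reads were handled with HISAT2 2.1.0 and featureCounts 1.6.3, and also Trimmomatic 0.38 and FastQC 0.11.7, on rn6 as the build, per the submitters' processing notes, which name no settings. The authors deposited TPM, FPKM and upper-quartile FPKM tables. TPM was the unit named for this comparison and was used as the main one, and every sample has the same TPM sum. For the 10 genes TPM and FPKM differed by at most 0.079 on the log2 scale after the median shift of each sample was removed. Over all kept genes 9.87% differed by more than 0.5 in some sample or were at 0 in FPKM only. TPM and FPKM thus differ by more than a scaling of each sample, and the cause was not tested. Of the genes named, AABR07070085.1, AABR07073400.1 and Fabp4 passed 0.5.

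Whole reads and gene lengths were recovered from upper-quartile FPKM for 11001 of 11083 kept genes by searching for the length under which all values were whole within 0.0002 reads, and were used for depth, a length trend and 1 alternative fit. They are the reads behind the FPKM and may differ from those behind the TPM. The search was tested on simulated data.

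The main test was limma 3.58.1 in R 4.3.3 with the trend option on log2(TPM + 1), two-sided. A fold on this scale understates changes of low genes. The members, gene lists, division of sample numbers and tests were chosen with earlier results of these data known. Genes named are the 10 members, up to 3 called genes with the smallest adjusted p per list or its most abundant gene, the leading marker of each list described, and the 3 genes most like the 2 members with the smallest adjusted p. The further called genes of the lipid supply list were named after their values were seen. Adipose, stellate, cholangiocyte and erythroid marker lists were also scored: 1 of 3 kept adipose (Fabp4 led), 0 of 8 stellate (Col3a1), 1 of 3 cholangiocyte (Anxa4) and 1 of 6 erythroid markers (Hba-a1) were higher. Alternatives were FPKM, upper-quartile FPKM, pseudocounts of 0.1 and 5, unfiltered genes, genes averaging 5 TPM or more, quantile normalization, median centring, a removed length trend, robust variance, sample weights, a term for the sample numbers, each set of numbers alone, the replicate block, an exact rank-sum test and leaving out each sample. Combinations with the number term, and voom on recovered reads, were added after the data were seen. Python 3.11.15, pandas 2.3.3, numpy 2.4.6 and matplotlib 3.10.9 were used. The RefSeq promoter table is of GRCr8, and gene positions are those of rn6 in the files.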

Additional observations from a re-analysis of the deposited data

Results flagged for a closer look

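Among 19 genes examined in each strain (the 10 members and 9 other pathway genes), 1 of 38 groups of 5 samples held a value far from the others, where chance alone flags about 1 in 20 groups. This was Pnpla3 in SD sample 5, at 82.9 TPM, with 24.1 TPM as the next value.

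The strain difference of Scd differed between samples 4 and 5 and samples 1 to 3 by 1.87 on the log2 scale (limma interaction adjusted p = 0.0438), at 3.62 in samples 4 and 5 and 1.75 in samples 1 to 3. Scd had 2998 and 2595 TPM in EHBR samples 4 and 5 and 175 and 289 TPM in SD samples 4 and 5.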

How the results depend on the processing

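Of the 10 genes, 1 passed as reported. The count was 0 with FPKM, voom on recovered reads and the exact rank-sum test (5, 5 and 3 at an unadjusted p under 0.05), 2 with sample weights, in samples 1 to 3 and in samples 4 and 5, and 4 with the number term, alone or with median centring or the length trend removed. Leaving out 1 sample gave 0 to 2. With upper-quartile FPKM, median centring or the length trend removed the 1 gene was Apoa5 and not Mttp, which passed in 19 of 30 settings with differences of 0.56 to 0.87. Over all genes, 604 passed, 1011 with sample weights, 1878 with the number term, 1191 and 1195 with it after median centring and length trend removal, 0 by the exact rank-sum test (1756 at an unadjusted p under 0.05), and 381 to 608 with 1 sample left out. Upward calls were 423 of 604 with TPM and 193 of 459 after median centring, which moved the median gene from 0.15 to -0.02. Of the pathway genes, 12 passed, 7 after median centring, 19 with sample weights, 19 in samples 4 and 5, 28 with the number term, 25 with it after either median centring or length trend removal, 0 by the exact rank-sum test (28 at an unadjusted p under 0.05), and 7 to 12 with 1 sample left out.

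Same-numbered samples of the strains had deviations that correlated at 0.134, 0.287, 0.0742, 0.254 and 0.270 across genes. Of 10 samples, 4 correlated best with their own number. The main fit did not take the numbers as pairs, and these values do not settle whether they are. With the replicate block 3 of the 10 genes passed (Mttp, Lipc and Apoa5), 19 pathway genes and 861 of the 11083 kept genes.

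Differences that did not pass changed sign as follows. Apoa1 was 0.30 after quantile normalization, 0.00 with sample weights and 0.02 in samples 1 to 3. Apoa2 was -0.03 with FPKM and voom, -0.10 with upper-quartile FPKM, -0.11 after median centring with or without the number term, -0.16 with sample weights and -0.24 in samples 1 to 3. Apoa4 was 0.30 in samples 4 and 5. Apoc3 was -0.08 with FPKM and voom, -0.15 with upper-quartile FPKM and after median centring with or without the term, -0.01 with the length trend removed, -0.09 with sample weights and -0.11 in samples 1 to 3. P4hb was -0.03 with FPKM and voom, -0.10 with upper-quartile FPKM, -0.11 after median centring and -0.12 with the length trend removed, with or without the term. With 1 sample left out, Apoa1 ranged from -0.13 to -0.02, Apoa2 from -0.07 to 0.18, Apoa4 from -0.37 to 0.11, Apoc3 from -0.07 to 0.08 and P4hb from 0.00 to 0.16. The causes were not tested. The test of a difference between the sets of sample numbers called 0 of the 10 genes in every setting run (1 to 4 at an unadjusted p under 0.05).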
